A study of Mus musculus with 14 samples.

Results

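The 10 genes described here, Cd14, Tlr2, Tlr4, Ly96, Myd88, Irak1, Irak2, Irak3, Irak4 and Traf6, encode the receptors and the proximal signaling proteins of the Toll-like receptor pathway, and were taken by symbol from the 17656 genes measured. They were followed in 14 livers of 8-week-old male mice on the C57BL/6 background, 1 library per mouse. Wild-type (WT) mice and Ythdf1-/- (KO) mice received saline (3 WT and 3 KO mice) or concanavalin A, ConA, at 8 mg/kg into a vein (4 WT and 4 KO mice), and all livers were taken 8 h later. ConA is a plant lectin that activates T cells and causes acute hepatitis in mice. YTHDF1 is a cytoplasmic protein that reads N6-methyladenosine (m6A) marks on mRNA, and the KO mice lack exon 3 of its gene in all cells of the body, so liver cells and blood-derived cells cannot be told apart as the site of an effect. Levels are given as TPM, the number of transcripts of a gene per 1000000 transcripts and a share that takes gene length into account, so that levels of different genes can be compared.

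Toll-like receptors sense microbial products and molecules released from damaged cells. TLR2 binds lipopeptides at the cell surface, whereas TLR4 binds lipopolysaccharide together with its partner MD-2, the product of Ly96, and the co-receptor CD14 passes ligands to both. The adaptor MYD88 then gathers the kinases IRAK4, IRAK1 and IRAK2 into one complex, which engages the ubiquitin ligase TRAF6 upstream of NF-kB and MAP kinases, while IRAK3 (IRAK-M) lacks kinase activity and is known as a brake on this route. In liver the pathway is known above all from Kupffer cells, the resident macrophages, but hepatocytes and infiltrating neutrophils and monocytes also express several of its genes.

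Some features of the libraries bear on the results. Replicates 2 and 3 of the WT saline group were nearly alike, with a median absolute log2 ratio of 0.0578 over 3492 genes at 10 TPM or more in all 14 libraries, against 0.109 to 0.380 in the 17 other within-group pairs, so the fits that use WT saline mice were repeated with the 2 averaged into 1. Replicate 3 of each ConA group stood apart on the second principal component (7.77% of the variance), at 40.3 in WT and 22.6 in KO against -17.3 to 0.22 in the other 6 ConA libraries. Ythdf1 was at 12.0 to 13.9 TPM (WT) and 18.4 to 20.8 TPM (KO) in saline livers and at 18.7 to 25.6 TPM (WT) and 15.5 to 26.2 TPM (KO) in ConA livers, and since a whole-gene value also counts reads outside the deleted exon, it does not check the genotype. Hepatocyte markers summed to at least 54663 TPM in every library, which is far above any other list of cell type markers.

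The co-receptor Cd14 and the receptor Tlr2 rose from at most 3.27 TPM under saline to at least 35.13 TPM after ConA, in both genotypes. Cd14 was at 3.05, 3.27 and 2.59 TPM in the WT saline livers and at 1.20, 0.98 and 1.45 TPM in the KO saline livers. After ConA it was at 170.53, 124.76, 156.66 and 422.51 TPM in WT and at 228.03, 272.82, 372.27 and 338.63 TPM in KO livers. Every ConA liver thus lay far above every saline liver, the ConA groups overlapped, and the saline groups did not. The ratio of mean TPM, ConA over saline, was 73.6 in WT and 250.4 in KO mice, beside 83.8 and 111.5 for Tlr2 and 86.6 and 64.5 for Irak3, so the order of the 3 genes depends on the scale and the genotype. On the scale of log2(TPM + 1), which understates changes of genes near 1 TPM, the ConA response of Cd14 was 5.62 (SE 0.36, adjusted p = 3.21e-06) in WT and 7.08 (SE 0.17, adjusted p = 4.08e-10) in KO mice.

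**Figure D1:**
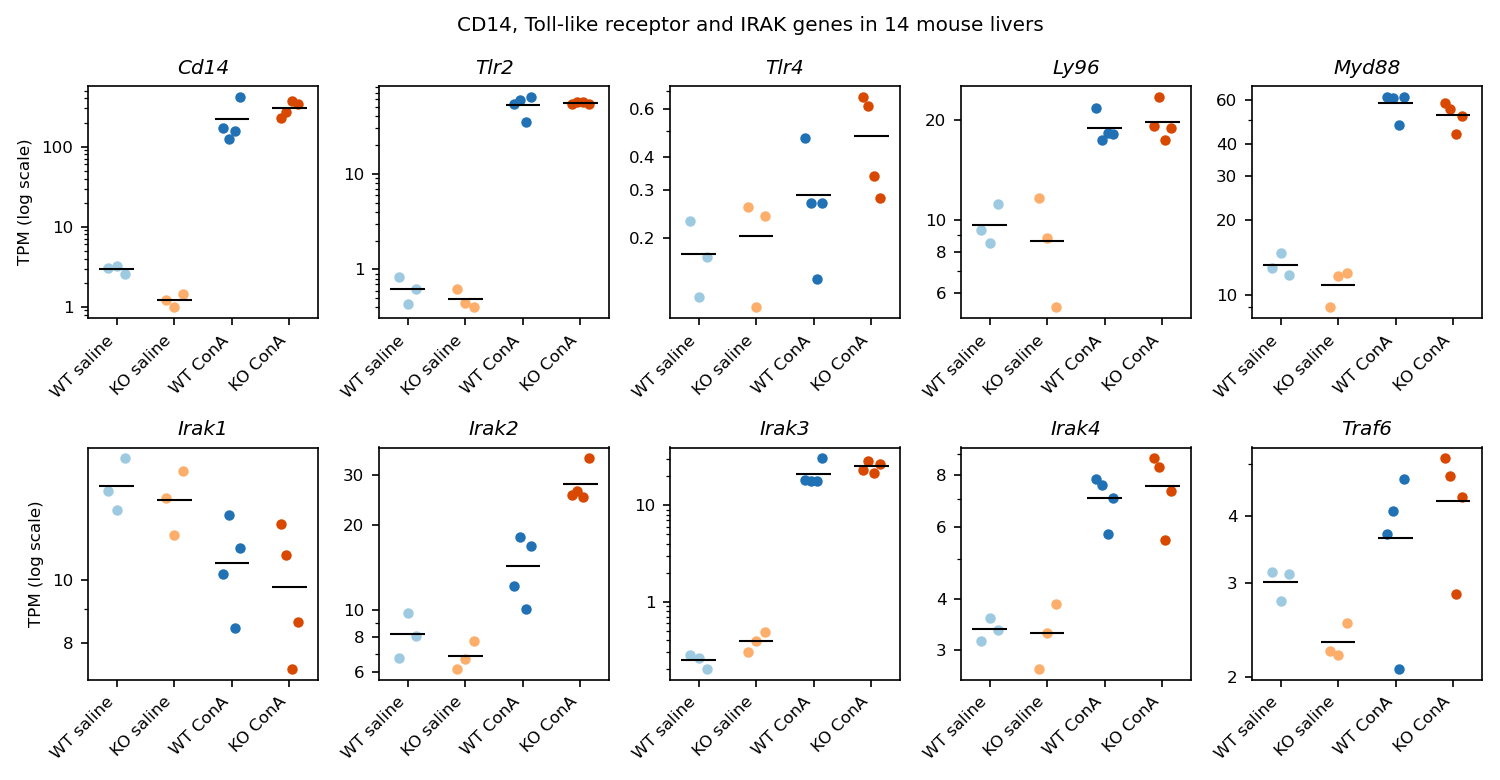
TPM on a log axis of the 10 genes in each liver (points) with the group mean (line), for WT saline and KO saline (n = 3 each) and WT ConA and KO ConA (n = 4 each). The vertical range differs between panels. Cd14, Tlr2 and Irak3 span the widest ranges, Tlr4 stays below 1 TPM in every liver, and for Irak2 all KO ConA livers (25.19 to 34.58 TPM) lie above all WT ConA livers (10.06 to 18.17 TPM).

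Tlr2 was at 0.83, 0.43 and 0.63 TPM in the WT saline livers and 0.63, 0.45 and 0.40 TPM in the KO saline livers. After ConA its levels were 53.34, 58.53, 35.13 and 64.16 TPM in WT and 53.63, 56.15, 56.94 and 53.31 TPM in KO livers. All saline livers were below 1 TPM and all ConA livers were above 35 TPM, with the KO values inside the WT range. The response was 5.02 (SE 0.21, adjusted p = 3.82e-07) in WT and 5.23 (SE 0.13, adjusted p = 4.41e-10) in KO mice, and the KO and WT livers after ConA differed by 0.09 (95% interval -0.30 to 0.48). Tlr2 entered the tests of ConA against saline only through the ConA livers, so the filter favoured a rise. The promoter of Tlr2 is shown because, of the 7 genes with a RefSeq promoter window (250 bases before to 50 bases after a transcription start, GRCm38.p6), it was the only one whose window matched the NF-kB consensus. The matches, searched on both strands, began at bases -173, -172 and -8 from the start, and the first pair overlaps. The stretch below lies at chr3:83841768-83841858 on the minus strand, reads 5′ to 3′ from base -250 to -160, and has the bases covered by the overlapping matches in capitals.
Tlr2: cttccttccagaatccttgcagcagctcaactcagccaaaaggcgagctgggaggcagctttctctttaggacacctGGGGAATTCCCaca
Of 32851 windows of all genes, 4.51% held a match, so the presence of these letters describes the window and does not show a bound site.

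Tlr4, the lipopolysaccharide receptor, did not share the large rise of its co-receptor. Under saline its level was 0.12 to 0.23 TPM (WT) and 0.11 to 0.26 TPM (KO), and after ConA it was 0.14 to 0.47 TPM (WT) and 0.28 to 0.67 TPM (KO). It was below 1 TPM in every library and was therefore in no test, and its KO ConA livers lay above its KO saline livers whereas the WT groups overlapped. Within a liver, the TPM of Cd14 was 13.3 to 27.3 times that of Tlr4 in WT saline mice and 363 to 1565 times in WT ConA mice, a ratio whose lower term is a small and therefore imprecise value.

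Ly96, the MD-2 subunit without which TLR4 does not bind its ligand, was at a much higher level than its receptor in every liver. It was at 9.31, 8.51 and 11.17 TPM in the WT saline livers and 11.66, 8.80 and 5.43 TPM in the KO saline livers. ConA livers held 21.74, 17.44, 18.24 and 18.18 TPM in WT and 19.18, 23.55, 17.38 and 18.95 TPM in KO livers. The ConA livers lay above the saline livers in both genotypes, by 0.90 (SE 0.14, adjusted p = 6.84e-04) in WT and by 1.15 (SE 0.22, adjusted p = 7.32e-04) in KO mice. The KO saline group was the most spread, with replicate 3 below and replicate 1 above all WT saline livers.

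Myd88, the adaptor shared by nearly all Toll-like receptors and the interleukin-1 receptors, was already among the highest of the 10 genes under saline and rose in both genotypes. Its levels were 12.89, 14.69 and 12.05 TPM in the WT saline livers and 8.94, 11.92 and 12.26 TPM in the KO saline livers. After ConA they were 61.53, 61.33, 47.91 and 62.04 TPM in WT and 58.54, 55.46, 44.08 and 51.90 TPM in KO livers. In both ConA groups replicate 3 was the lowest liver, and it still lay far above every saline liver. The response was 2.06 (SE 0.14, adjusted p = 5.23e-06) in WT and 2.16 (SE 0.15, adjusted p = 5.88e-07) in KO mice, and the difference of the 2 responses was 0.10 (95% interval -0.34 to 0.54). A part of the exons of Myd88, 11.3% of their bases, overlaps exons of Acaa1a on the opposite strand, and since the sources do not state that reads were assigned by strand, reads in that stretch may come from either gene.

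The promoter of Myd88 is shown because it was the only 1 of the 7 windows with GAAA, any 2 bases and GAAA again on either strand, a simple form of the elements bound by interferon regulatory factors. The match began at base -40, and 3.44% of all windows held one. TGANTCA, the AP-1 motif, was in none of the 7 genes' windows and in 7.81% of all windows, which says only that these letters were not in them. The stretch lies at chr9:119340042-119340161 on the minus strand, from base -143 to -24, with the match in capitals.
Myd88: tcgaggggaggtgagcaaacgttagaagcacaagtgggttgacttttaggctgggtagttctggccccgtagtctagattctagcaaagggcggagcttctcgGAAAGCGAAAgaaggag

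The 4 Irak genes moved in different ways, so that the make-up of the family changed. Irak3, the kinase-inactive brake, was at 0.28, 0.26 and 0.20 TPM in the WT saline livers and 0.30, 0.39 and 0.49 TPM in the KO saline livers. With ConA it reached 18.54, 17.82, 18.05 and 31.01 TPM in WT and 23.42, 29.23, 21.88 and 26.88 TPM in KO livers. It was thus below 0.5 TPM in every saline liver and above 17 TPM in every ConA liver. The response was 4.13 (SE 0.20, adjusted p = 8.31e-07) in WT and 4.23 (SE 0.16, adjusted p = 7.88e-09) in KO mice, and the KO ConA livers differed from the WT ConA livers by 0.27 (95% interval -0.16 to 0.69, adjusted p = 0.538). Like Tlr2, Irak3 entered the tests of ConA against saline only through the ConA livers, so the filter favoured a rise.

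Irak2, the kinase that sustains signaling late after receptor engagement, was the 1 gene of the 9 tested whose response to ConA differed between the genotypes by the test, a call that was lost under several settings given below with the interaction. It was at 6.75, 9.74 and 8.06 TPM in the WT saline livers and 6.17, 6.69 and 7.77 TPM in the KO saline livers, which overlapped. After ConA it was at 12.15, 18.17, 10.06 and 16.83 TPM in WT and at 25.59, 26.37, 25.19 and 34.58 TPM in KO livers. The lowest KO ConA liver was above the highest WT ConA liver, and the lowest WT ConA liver was just above the highest saline liver. The response to ConA was 0.71 (SE 0.22, adjusted p = 0.0204) in WT and 1.87 (SE 0.15, adjusted p = 1.95e-06) in KO mice. The WT call was lost without replicate 1 (adjusted p = 0.0866) or 3 (adjusted p = 0.0635) of WT saline and without replicate 2 (adjusted p = 0.0509) or 4 (adjusted p = 0.0513) of WT ConA.

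Irak1, the most abundant kinase of the family under saline, was the only 1 of the 9 tested genes with a lower mean after ConA. It was at 13.72, 12.81 and 15.43 TPM in the WT saline livers and 13.36, 11.74 and 14.75 TPM in the KO saline livers. After ConA it was at 10.20, 12.59, 8.41 and 11.21 TPM in WT and at 12.20, 10.92, 7.28 and 8.60 TPM in KO livers. The WT groups did not overlap, by a narrow margin, and the KO groups did. The difference was -0.38 (SE 0.16, adjusted p = 0.0723) in WT and -0.43 (SE 0.18, adjusted p = 0.0599) in KO mice, so neither passed the threshold. Both did so under some settings, with -0.46 in WT mice without WT ConA replicate 2 (adjusted p = 0.0424) and -0.53 in KO mice without KO ConA replicate 1 (adjusted p = 0.0245).

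Irak4, the kinase that starts the complex, was at 3.16, 3.60 and 3.36 TPM in the WT saline livers and 2.70, 3.31 and 3.88 TPM in the KO saline livers. In the ConA livers it was at 7.83, 7.57, 5.76 and 7.04 TPM in WT and at 8.81, 8.40, 5.58 and 7.33 TPM in KO livers. It rose in both genotypes without overlap, by 0.87 (SE 0.15, adjusted p = 8.53e-04) in WT and by 0.98 (SE 0.18, adjusted p = 7.71e-04) in KO mice. Exons of Irak4 share 7.87% of their bases with Twf1 on the opposite strand, and those of Irak3 share 5.22% with Tmbim4. Irak2 exons share 4.44% of their bases with Gm43963, also on the opposite strand.

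Added up, the 4 Irak genes made 23.9 to 27.1 TPM (WT) and 22.1 to 26.9 TPM (KO) under saline, and 42.3 to 66.1 TPM (WT) and 59.9 to 77.4 TPM (KO) after ConA. Of this sum Irak1 took 48.5 to 57.4% (WT) and 53.1 to 59.3% (KO) under saline. After ConA its share was 17.0 to 22.4% in WT and 11.1 to 17.4% in KO livers. Irak3 went the other way, from 0.74 to 1.17% (WT) and 1.33 to 1.82% (KO) under saline to 31.7 to 46.9% (WT) and 33.4 to 39.0% (KO) after ConA. The share of Irak2 was 28.2 to 36.9% in WT saline, 27.4 to 30.2% in KO saline and 23.8 to 32.4% in WT ConA livers, ranges that overlap, and 35.2 to 44.7% in KO ConA livers, above the WT ConA range. Irak3 was thus the largest member in every WT ConA liver but 1, and Irak2 was the largest in most KO ConA livers.

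**Figure D2:**
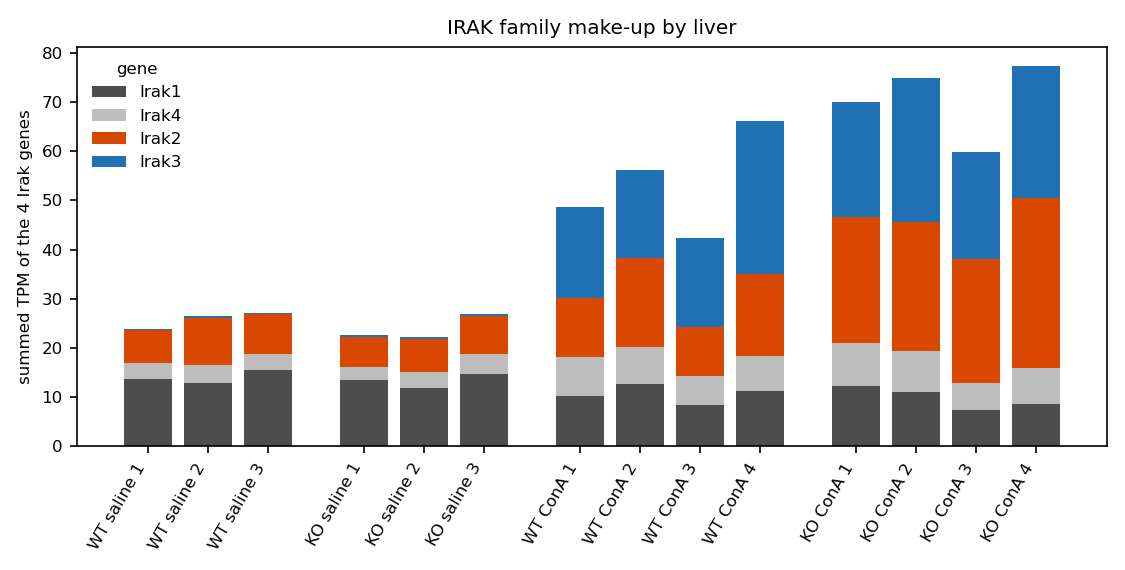
Stacked bars of the TPM of Irak1, Irak4, Irak2 and Irak3 in each of the 14 livers, with the height of a bar giving their sum. Irak1 makes up most of the sum in the saline livers other than WT saline 2, where it is 48.5%, Irak3 is barely visible there, and the ConA bars are taller, with a wider Irak2 segment in KO than in WT livers.

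The ratio of Irak2 to Irak1 within a liver does not depend on how libraries are scaled to each other. It was 0.49, 0.76 and 0.52 in WT saline and 0.46, 0.57 and 0.53 in KO saline livers. After ConA it was 1.19, 1.44, 1.20 and 1.50 in WT and 2.10, 2.41, 3.46 and 4.02 in KO livers. The 2 ConA groups did not overlap in this ratio and each was above all saline livers. The ratio was looked at after the values of both genes had been seen, so it is given as a description with no test.

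**Figure D3:**
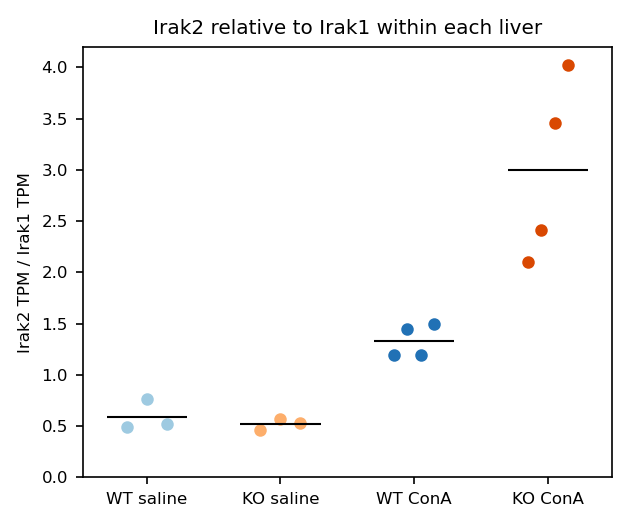
Ratio of Irak2 TPM to Irak1 TPM in each liver (points) with the group mean (line), by group. Saline livers lie between 0.46 and 0.76, WT ConA livers between 1.19 and 1.50 and KO ConA livers between 2.10 and 4.02.

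Traf6, the ubiquitin ligase that links the IRAK complex to its downstream kinases, stayed within a few TPM. It was at 3.14, 2.77 and 3.11 TPM in the WT saline livers and 2.24, 2.20 and 2.52 TPM in the KO saline livers. After ConA it was at 3.70, 4.08, 2.07 and 4.68 TPM in WT and at 5.12, 4.74, 2.86 and 4.34 TPM in KO livers. In WT mice the groups overlapped through ConA replicate 3, and the difference was 0.17 (SE 0.21, adjusted p = 0.514), which without that liver became 0.36 (adjusted p = 0.0201). In KO mice Traf6 rose by 0.65 (SE 0.18, adjusted p = 0.00996). The difference between these responses was 0.47 (95% interval -0.13 to 1.07) and did not pass the test (adjusted p = 0.303).

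Counted together, 7 of the 9 tested genes rose after ConA in WT mice (all but Irak1 and Traf6) and 8 of 9 in KO mice (all but Irak1), and none fell. Tlr2 and Irak3, below 1 TPM in every saline liver, entered the test only through the ConA livers and so had to differ, and of the other 7 tested genes 5 rose in WT and 6 in KO mice. Cd14 is among these 7, although at 0.98 TPM in KO saline replicate 2 it also needed the ConA livers to be tested in KO mice. ConA moved a large part of all genes tested, 53.0% in WT mice, 22.0% being higher, and 64.6% in KO mice, 33.9% being higher. The median difference of those 7 genes was 0.87 in WT and 1.15 in KO mice, against -0.07 and 0.07 over all genes tested. The groups did not overlap for 8 of the 9 genes in each genotype, Tlr2 and Irak3 included, compared with 58.0% of all genes in WT and 64.3% in KO mice. With WT saline replicates 2 and 3 averaged the same number of genes, 7, was called in WT mice, with Irak2 at 0.77 (adjusted p = 0.0433).

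**Figure D4:**
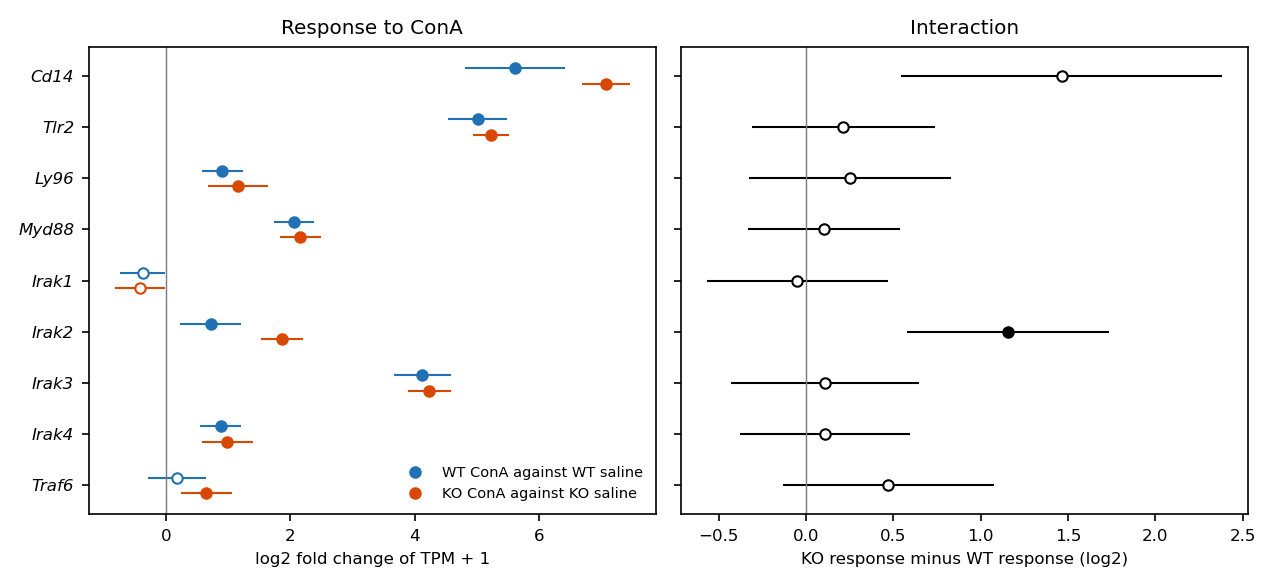
Left, log2 fold change of TPM + 1 after ConA with its 95% interval for the 9 tested genes in WT (blue) and KO (orange) mice. Right, the KO response minus the WT response with its 95% interval. Filled points passed an adjusted p of 0.05. Cd14, Tlr2 and Irak3 show the largest responses on this scale, and Irak2 is the 1 gene whose responses differed at that threshold, by 1.16.

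The order of the 10 genes by mean TPM changed with ConA. In WT saline livers Irak1 (13.99 TPM) and Myd88 (13.2 TPM) led with overlapping ranges, followed by Ly96 and Irak2, whose ranges overlapped too, then Irak4, Traf6 and Cd14, and Tlr2, Irak3 and Tlr4 below 1 TPM, and KO saline livers gave the same order. In WT ConA livers Cd14 led at 218.6 TPM, above Myd88 (58.2 TPM) and Tlr2 (52.8 TPM), which overlapped, and above Irak3 (21.4 TPM) and Ly96 (18.9 TPM), which overlapped as well. In KO ConA livers Cd14 led at 302.9 TPM, Tlr2 (55.0 TPM) and Myd88 (52.5 TPM) overlapped, and Irak2 (27.9 TPM) stood ahead of Irak3 (25.4 TPM) with overlapping ranges.

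How the genotypes differed was asked directly in 3 ways. After ConA, no gene of the 9 passed the test between KO and WT mice by limma, and 0.428% of all genes were called. At an unadjusted p under 0.05 there was 1 of the 9 genes, beside 16.7% of all genes. That gene was Irak2, at a difference of 0.94 (SE 0.20, 95% interval 0.51 to 1.38, adjusted p = 0.0664). All 4 KO livers were above every WT liver, a lack of overlap that 10.5% of all genes showed. In the fit with all 14 libraries Irak2 was called (adjusted p = 0.00930), where 6.08% of all genes were. Cd14 was 0.62 higher (95% interval -0.10 to 1.33, adjusted p = 0.375) with overlapping groups. The intervals of Tlr2, Ly96, Myd88, Irak1 and Irak4 reached from -0.54 (Irak1) at the lowest to 0.48 (Tlr2) at the highest. Differences inside a gene's own interval are not excluded.

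Under saline 7 of the 10 genes could be tested, since Tlr2, Irak3 and Tlr4 were below 1 TPM. Cd14 was lower in KO mice by 0.85 (SE 0.12, adjusted p = 0.0122), in 3 of 3 livers below every WT liver, and was the 1 gene called, while 19.2% of all genes were called, 12.9% being lower, and 42.3% did not overlap. The call was lost with WT saline replicates 2 and 3 averaged (-0.86, adjusted p = 0.0678), where 0.459% of all genes were called, without WT saline replicate 2 (adjusted p = 0.0760) or 3 (adjusted p = 0.0673), and in the fit with all 14 libraries (adjusted p = 0.169). Traf6 did not overlap between the groups either, at -0.27 (SE 0.09, adjusted p = 0.0774). All 7 differences were below 0, with a median of -0.21 against -0.10 for all genes tested. When libraries were rescaled by their median ratio, the median of all genes moved to 0.00, the differences of Irak1 and Irak4 turned to 0.04 and 0.06, and Cd14 stayed called at -0.77 (adjusted p = 0.0150). The same rescaling changed the calls of all genes from 659 higher and 1350 lower to 1024 higher and 634 lower.

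The interaction of genotype and ConA, the KO response minus the WT response over all 14 libraries, was called for Irak2, 1 of the 9 genes, at 1.16 (SE 0.27, 95% interval 0.58 to 1.74, adjusted p = 0.0342), where 4.78% of all genes were called, 2.64% with a positive value. For Cd14 it was 1.46 (SE 0.43, 95% interval 0.54 to 2.38, adjusted p = 0.0616), made up of a lower saline level and of the overlapping ConA levels given above. The Irak2 call was lost with WT saline replicates 2 and 3 averaged (1.10, adjusted p = 0.104), where 0.243% of all genes were called. It was also lost without WT saline replicate 2 (adjusted p = 0.106) or 3 (adjusted p = 0.102), KO saline replicate 1 (adjusted p = 0.0951) or 2 (adjusted p = 0.0764), and KO ConA replicate 2 (adjusted p = 0.0560) or 4 (adjusted p = 0.0672). Without WT ConA replicate 4, the liver with the highest Cd14, Cd14 was called in addition at 1.84 (adjusted p = 0.00222). Rescaling moved the median of all genes from 0.14 to -0.00 and the Irak2 value to 0.998 (adjusted p = 0.0391). The comparisons share libraries, so they are not independent of each other.

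The other genes of the pathway were taken from 4 lists by role. Their counts stand beside 22.0% of all genes tested that rose and 31.0% that fell in WT mice. In KO mice these shares were 33.9% and 30.7%. Of 17 other Toll-like receptors and their partners, 10 were tested in WT mice, where 2 rose and 5 fell, and 9 in KO mice, where 4 rose and 1 fell. The 2 that rose in WT mice were Lbp, the plasma protein that hands lipopolysaccharide to CD14, at 2.13 (adjusted p = 1.04e-06, and 2.02 in KO mice), and Hsp90b1, the endoplasmic reticulum chaperone of Toll-like receptors, at 2.04 (adjusted p = 3.59e-05, and 1.90 in KO mice). Of 5 other adaptors, 3 were tested and all 3 rose in both genotypes (2 of 3 in WT mice with WT saline replicates 2 and 3 averaged), among them Ticam1 (TRIF), which carries the MYD88-independent route, at 0.996 in WT and 1.05 in KO mice, and the adaptor Traf3 at 0.83 and 1.14. The median differences of the first list were -0.24 in WT and -0.01 in KO mice, and those of the second were 0.83 and 1.05.

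Of 15 kinases and ubiquitin enzymes that act with or below TRAF6, 5 rose and 1 fell of 15 tested in WT mice. In KO mice 8 rose and 1 fell of 14 tested. The medians were 0.14 in WT and 0.50 in KO mice. Of all genes tested, 22.0% rose in WT and 33.9% in KO mice. Ikbke, a kinase of interferon and NF-kB signaling, was at 3.21 to 5.10 TPM (WT) and 5.71 to 6.68 TPM (KO) under saline, and at 62.41 to 75.46 TPM (WT) and 51.00 to 63.98 TPM (KO) after ConA. Its response was thus smaller in KO mice, 2.92 against 3.86, and the interaction was -0.93 (adjusted p = 0.0280), opposite in sign to that of Irak2. Map3k8, the kinase TPL2, was at 0.56 to 1.34 TPM (WT) and 0.67 to 1.25 TPM (KO) under saline. It rose by 1.63 in WT and 2.11 in KO mice. Too few saline livers held Map3k8 at 1 TPM or more for it to be tested without the ConA livers, which favoured a rise.

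Of 11 brakes of the pathway, 5 rose and 1 fell of 9 tested in WT mice. In KO mice 7 rose and 1 fell of 9 tested. The medians were 1.32 in WT and 1.89 in KO mice. The share of all genes tested that rose was 22.0% in WT and 33.9% in KO mice. Socs1 and Tnfaip3 were below 1 TPM in every saline liver and entered the test only through the ConA livers. Socs1, which limits cytokine and Toll-like receptor signaling, went from at most 0.93 TPM in every saline liver to 65.52 to 149.97 TPM (WT) and 82.26 to 141.63 TPM (KO) after ConA. Tnfaip3 (A20), a ubiquitin-editing enzyme that acts on TRAF6, rose by 3.94 in WT and 4.67 in KO mice. Tnip1, a partner of A20, rose by 1.32 in WT and 2.28 in KO mice, with an interaction of 0.96 (adjusted p = 0.0429). No gene of the 4 lists was called between KO and WT mice after ConA. Under saline, of 13 kinase list genes tested 1 was higher and 4 were lower in KO mice, and 1 of 7 brakes tested was lower. No gene of the other lists was called. Of all genes tested under saline, 6.30% were higher and 12.9% lower. Of the 4 lists, Ikbke and Tnip1 were the genes called in the interaction. With WT saline replicates 2 and 3 averaged, no gene of these lists was called under saline or in the interaction, where the adjusted p was 0.102 for Ikbke and 0.108 for Tnip1. In WT mice the same averaging left 3 risen and 4 fallen Toll-like receptors and partners in place of 2 and 5, 2 risen adaptors in place of 3, 3 risen kinase list genes in place of 5, and no fallen brake in place of 1.

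Markers of several cell types moved with ConA as well. In whole liver, more or fewer cells of a type and more or less RNA per cell cannot be told apart, and the part of cell content in the changes of the 10 genes was not tested. The 11 neutrophil markers summed to 9.64 to 12.0 TPM (WT) and 5.56 to 11.1 TPM (KO) under saline, and to 331 to 585 TPM (WT) and 431 to 995 TPM (KO) after ConA, with 10 of 11 higher in each genotype, although only 5 of the 11 were high enough to be tested between the saline groups. Cd14, Tlr2 and Irak3 rose in the same comparisons, as did 22.0% (WT) and 33.9% (KO) of all genes tested, and a link was not tested. The 6 monocyte markers include Fn1, which hepatocytes also make. They summed to 144 to 232 TPM in saline and 307 to 633 TPM in ConA livers. In each genotype 4 of 4 tested were higher, and the rest of the 6 were too low to be tested. Fewer than 4 were high enough to be tested between the saline groups. Some of the 4 thus could not have entered the test without the ConA livers, which favoured a rise. Kupffer cell and macrophage markers summed to 140 to 239 TPM (WT) and 66.3 to 151 TPM (KO) under saline. After ConA they summed to 25.7 to 98.0 TPM (WT) and 20.1 to 87.1 TPM (KO). The saline and ConA ranges overlapped in KO mice and not in WT mice. Of these 11 markers 10 fell in WT and 4 in KO mice, beside 31.0% and 30.7% of all genes tested. Fewer than 11 were high enough to be tested between the ConA groups. Some may thus have entered the test only through the saline livers, which favours a fall.

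Between KO and WT mice after ConA, none of the 11 neutrophil markers, 8 tested macrophage markers or 4 tested monocyte markers was called, with medians of 0.73, 0.34 and 0.20 beside the 0.94 of Irak2. Sinusoidal endothelial markers summed to 21.3 to 29.2 TPM (WT) and 34.6 to 57.7 TPM (KO) under saline. Of these, 4 of 5 tested were higher in KO mice, beside 6.30% of all genes tested, in the comparison in which Cd14 was lower. With WT saline replicates 2 and 3 averaged, 0 of 6 were called. T cell markers summed to at most 6.67 TPM and B cell markers to at most 4.11 TPM in any liver, too low to be followed. Of the 6 hepatocyte markers used, 5 fell in WT and 6 in KO mice, beside 31.0% and 30.7% of all genes tested. The sum of these markers went from 108345 to 136884 TPM in saline to 54663 to 82680 TPM in ConA livers. TPM are shares of 1 total, to which such abundant transcripts contribute, and their part in the rises of the 10 genes was not tested. Of all markers, Ngp of the neutrophil list was listed at 0 in every library of a group, the KO saline livers, and no other marker was.

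Genes whose pattern over the 14 livers was most like that of Cd14, Myd88 and Irak3 were found by the mean absolute difference of their centred log2(TPM + 1) values, among 11326 genes. Those most like Cd14 were Steap4 (0.33), Il1rn (0.38), which encodes the interleukin-1 receptor antagonist, and A2m (0.38). Myd88 was followed most closely by Gsdmd (0.12), the pore-forming gasdermin D, Tapbp (0.13), which loads antigen peptides, and Prg4 (0.14). The nearest to Irak3 were Upp1 (0.23), Ripk2 (0.23), a kinase of NOD receptor signaling, and Neurl3 (0.25). Il1rn was at 0.99 to 2.07 TPM in KO saline and at 3.19 to 5.67 TPM in WT saline livers. This gap has the same direction as that of Cd14. It adds no evidence for that gap, since Il1rn was picked for its likeness to Cd14 over all 14 livers, the saline ones included.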

How the data were processed

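Total RNA of 14 mouse livers was sequenced by the authors on a BGISEQ-500, single-end, 50 bases per read. The deposited values are TPM per gene, made by the authors and summing to about 1000000 in each library over 17656 genes. The submitters' processing notes name Bowtie2, RSEM 1.3.1 and GRCm38.p6, whereas the methods of the study name STAR and HTSeq, and which of them made the deposited TPM could not be settled. Read counts were not used here, so the depth is unknown and no counting error can be given. The spread between mice is the only error. Genes listed at 0 numbered 2230 to 2701 per library.

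Groups and replicate numbers came from the labels, which call the samples biological replicates. The test was limma-trend (limma 3.58.1, R 4.3.3), two-sided, on log2(TPM + 1). A gene entered it when the number of libraries at 1 TPM or more was no lower than the size of the smaller group. P-values were adjusted by Benjamini-Hochberg over all genes tested, and a gene was called under 0.05. Each comparison of 2 groups used its own libraries, and the interaction used all 14, with a gene tested when at 1 TPM or more in at least 3. The study used edgeR on counts, which TPM do not allow. The code was tested on simulated data.

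The 10 genes, the pathway and marker lists and the rules were chosen with earlier results of these data known. Named pathway genes are, per list, the called genes with the 2 largest absolute changes in WT mice after ConA and every gene called between KO and WT mice after ConA or in the interaction. Genes of like pattern are the 3 nearest to Cd14, Myd88 and Irak3, and markers are given by count and sum. The ratio of Irak2 to Irak1 and the shares of the Irak sum were added after values were seen.

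Tried instead were a pseudocount of 0.1, a 5 TPM filter or none, libraries rescaled by their median ratio, all 14 libraries in one fit, robust eBayes, a replicate block, WT saline replicates 2 and 3 averaged, both ConA replicates 3 left out, and each library left out. Same-numbered libraries correlated at -0.20 to 0.41 in their deviations from group means, and in no comparison were all pairs over 0.1, so the numbers were not taken as pairs. Of 50-base stretches of the reference transcripts, 90.8 to 100% per gene occurred in no other gene. Promoter windows are from RefSeq, for 7 of the 10 genes. Python 3.11.15, pandas 2.3.3, NumPy 2.4.6 and matplotlib 3.10.9 were used.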

Additional observations from a re-analysis of the deposited data

Results flagged for a closer look

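In 4 of 20 groups of 4 ConA livers (10 genes in 2 genotypes), 1 liver lay apart from the others by Dixon's ratio, its gap to the nearest liver over the range of the group, beyond the critical value. Chance gives about 1 in 20 for independent groups. The groups here come from the same livers, so the count cannot be judged by that rate. The ratio was taken on TPM and not on the log2 scale of the other tests, where the flags may differ. WT ConA replicate 4 was high for Cd14 (422.51 TPM, ratio 0.846) and for Irak3 (31.01 TPM, ratio 0.945). WT ConA replicate 3 was low for Myd88 (47.91 TPM, ratio 0.950), and it and KO ConA replicate 3 were the lowest of their groups for 5 genes, Irak1, Irak2, Irak4, Myd88 and Traf6. KO ConA replicate 4 was high for Irak2 (34.58 TPM, ratio 0.874). Without that liver the difference of Irak2 between KO and WT mice after ConA was 0.84 (adjusted p = 0.140).

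The response of Irak2 to ConA differed between the genotypes by a test of the difference itself, 1.16 on the log2 scale (adjusted p = 0.0342), and over the other settings tried its adjusted p was 0.0183 to 0.106.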

How the results depend on the processing

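Of 266 alternative values of genes that were called, 250 stayed called and 16 lost the call, and none reversed. All 16 losses were of Irak2 in WT mice, of Irak2 in the interaction or of Cd14 under saline. The share that stayed called thus does not describe these results. Among all 712 values, 19 reversed, each of a gene that was not called. The count of called genes after ConA between KO and WT mice went from 0 to 1 with all 14 libraries in the fit and with the replicate block, each time Irak2 (adjusted p = 0.00930 and 0.0460). Between KO and WT mice under saline it went from 1 to 0 at a filter of 5 TPM, where Cd14 was not tested, with all 14 libraries, and with WT saline replicates 2 and 3 averaged, and it was 0 to 1 when each library was left out, 0 without WT saline replicate 2 (Cd14 -0.79, adjusted p = 0.0760) or 3 (-0.92, adjusted p = 0.0673). In the interaction the count was 2 with log2(TPM + 0.1) and with the replicate block, where Cd14 joined (adjusted p = 0.0380 and 0.0460), 0 without a filter (Irak2 adjusted p = 0.0513) and with the 2 saline libraries averaged, and 0 to 2 when each library was left out.

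Reversed values were -0.10 for Tlr2 between KO and WT mice after ConA without both ConA replicates 3, 0.0428 for Irak1 and 0.0596 for Irak4 under saline after rescaling, and, in the interaction, -0.22 for Irak3 with log2(TPM + 0.1) and -0.0661 for Myd88 and -0.0348 for Irak4 after rescaling. With each library left out, the values after ConA ranged from -0.0881 to 0.20 for Tlr2, from -0.0255 to 0.12 for Ly96 and from -0.00714 to 0.19 for Irak4. Under saline they ranged from -0.42 to 0.0706 for Ly96, from -0.14 to 0.00876 for Irak1 and from -0.13 to 0.0698 for Irak4. In the interaction they ranged from -0.0128 to 0.48 for Ly96, from -0.0317 to 0.18 for Myd88 and from -0.16 to 0.0678 for Irak1. The causes were not tested.

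The replicate block moved the calls of all genes between KO and WT mice after ConA from 45 to 140 and in the interaction from 541 to 358. In the ConA against saline comparisons of this fit, ConA replicate 4 has no partner and does not add to the value. Of the libraries, 2 of 6, 4 of 6, 2 of 8 and 3 of 6 correlated best with their own number in the comparisons of WT mice, KO mice, ConA livers and saline livers. With the 2 WT saline libraries averaged, calls of all genes went from 2009 to 49 under saline and from 541 to 28 in the interaction. With all 14 libraries they went from 45 to 640 after ConA and from 2009 to 332 under saline. Without a filter they went from 45 to 3 after ConA and from 2009 to 958 under saline, and from 541 to 345 in the interaction. Without both ConA replicates 3 the interaction had 1591 calls. With each library left out, calls of all genes ranged from 5 to 52 after ConA, from 45 to 2739 under saline and from 22 to 769 in the interaction. Rescaling changed the split after ConA from 36 higher and 9 lower to 17 higher and 12 lower. Irak1 in KO mice was called after rescaling (-0.50, adjusted p = 0.00340). The depth behind the TPM is unknown, which leaves values below 1 TPM, Tlr4 above all, with no known precision.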
